A study of Mus musculus with 12 samples.

Results

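Adipocytes carrying the T166D form of PPARγ (TD) were compared with wild-type adipocytes (WT) over all expressed genes. The comparison used 8 of the 12 RNA-seq libraries of the series, 4 of each genotype, chosen by the genotype in the sample labels. The other 4 libraries, from cells in which alanine replaces the same threonine (TA), entered the fit to share the estimate of the spread. They thereby also took part in the filter on low counts and in the scaling. The TD mice were homozygous for a global knock-in made with CRISPR-Cas9, in which aspartate stands in place of a threonine (T166) to mimic its phosphorylated state, so the change was present in each cell of the animal and from the start of life. The WT cells carried the unchanged gene. Both genotypes were otherwise treated alike: the stromal vascular fraction of subcutaneous fat, which holds preadipocytes along with vascular, immune and other cells, was plated, induced for 4 days with 850 nM insulin, 1 nM triiodothyronine, 0.5 mM IBMX, 125 nM indomethacin and dexamethasone, and harvested on day 8. Dexamethasone is not given a value here, because the labels and the methods differ in its unit. The sources used here do not say whether the libraries of a genotype came from separate animals or cultures, so p-values measure the spread between these libraries, which may be technical.

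PPARγ is the nuclear receptor that drives fat cell differentiation. It binds DNA as a heterodimer with a retinoid X receptor (RXR) and switches on genes of fatty acid uptake, triglyceride storage and lipolysis, and in beige and brown fat it acts with coactivators such as PGC-1α on genes of mitochondrial fuel oxidation and heat production. Thiazolidinedione drugs are its ligands, and phosphorylation of the receptor changes which of its target genes are used.

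The 2 genotypes differ by design at a single codon, which is shown here for that reason. In the mouse genome GRCm38 it lies at chr6:115450959-115450961 on the plus strand, in coding sequence, and it is the T166 codon of the 505-codon transcript Pparg-201 and codon 136 of the 475-codon transcripts Pparg-202 and Pparg-204. The coding stretch around it was read from the reference transcripts (5′ to 3′, chr6:115441659-115450979 with the intron between left out), with the threonine codon in capitals.
Pparg: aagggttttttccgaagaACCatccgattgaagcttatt
The codon sits within the part of the gene that encodes the DNA-binding domain. Gene counts hold no read sequence, so the change itself could not be checked in the libraries.

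Depth was 18823619 to 20324286 counts in the WT libraries and 16553324 to 18357864 in the TD libraries, with no overlap. Cells of both genotypes expressed adipocyte markers: the summed CPM (counts scaled to the normalized library size) of Adipoq, Fabp4, Plin1, Cidec, Lpl and Cfd was 17918 to 20229 in WT and 12547 to 14194 in TD. Some libraries stood apart from the rest of their genotype. TD replicate 1 held the summed CPM of sarcomere genes near the WT level (44.5 against 23.2 to 43.2 in WT), whereas the other 3 TD libraries held 150 to 544. TD replicates 3 and 4 were alone in having raised scores for interferon-induced genes. Results that rest on these libraries are given with and without them.

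TD and WT adipocytes differed over a large share of the transcriptome, with lower expression of mitochondrial, lipid-handling and beige fat genes and higher expression of matrix, stromal, vascular, chemokine and skeletal muscle genes in TD. Of 15117 genes tested, 4418 (29.2%) were called at an adjusted p under 0.05 in edgeR's quasi-likelihood test. Of these, 2276 were higher (15.1% of genes tested) and 2142 were lower in TD (14.2%). The share of calls that were higher was 51.5%, and 64.6% when libraries were scaled by their totals alone. The shares of 29.2%, 15.1% and 14.2% are the background against which the counts of each gene list below are read. The median log2 fold change over all genes tested was 0.01. In bulk RNA, fewer cells of a type and less RNA per cell cannot be told apart, and this holds for each list below.

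The rises and the falls differed in size and in where they lay on the expression scale. The median log2 fold change was 0.72 among genes called higher and -0.43 among genes called lower. Beyond a 2-fold change, 663 genes were higher (4.39%) and 132 lower (0.873%), and beyond 4-fold 116 were higher and 17 lower. Falls were rare among weakly expressed genes and common among abundant ones. Under 1 CPM, 1.45% of genes were called lower and 8.88% higher, and over 1000 CPM 39.8% were called lower and 30.1% higher. Calls in either direction also grew with expression, from 10.3% of genes under 1 CPM to 69.9% over 1000 CPM. Genes with few counts are harder to call, and the part of this in these shares and sizes was not tested. Among protein-coding genes 31.9% were called, against 12% of long noncoding genes and 13.0% of pseudogenes. The 4 TD and the 4 WT libraries did not overlap for 4861 genes (32.2%), with TD above WT in 2387 (15.8%) and below it in 2474 (16.4%).

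**Figure D1:**
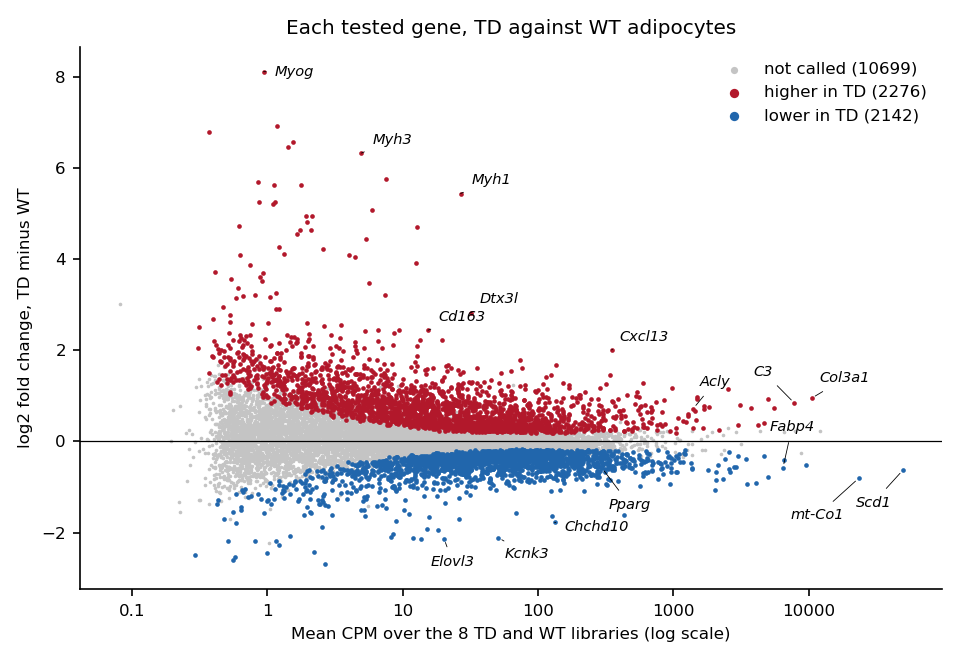
Each point is 1 tested gene, with its mean CPM over the 8 TD and WT libraries on a log scale (horizontal) and its log2 fold change, TD minus WT (vertical). Red points were called higher in TD (2276), blue points lower (2142) and grey points were not called. The largest rises are of genes with a low mean, such as Myog and Myh3, and the most abundant called genes, Scd1 and mt-Co1, lie below 0.

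The receptor itself was among the genes that fell. Pparg was at 373, 331, 344 and 368 CPM in the WT libraries and at 258, 257, 223 and 210 CPM in the TD libraries (log2 fold change -0.58 ± 0.09 SE, adjusted p = 0.000429, edgeR). No TD library reached the lowest WT library. Scaled to the 6 adipocyte markers, a setting chosen after the data were seen, the difference was -0.08 and not called (adjusted p = 0.275, edgeR). Those markers fell themselves and include genes listed as PPAR targets, Fabp4 and Lpl. The scale therefore shrinks a fall of Pparg by construction, and no conclusion is drawn from the lost call. Of 29 adipogenic transcription factors tested, 7 were higher and 7 lower, with a median log2 fold change of -0.04. The genes that fell included Rxrg, a partner receptor of the RXR family (-0.96), Ppara, the PPAR isoform of oxidative tissues (-0.71), and Cebpa, which maintains the adipocyte state together with Pparg (-0.36). Zfp521, a repressor of adipogenic commitment, rose by 0.69. The sterol and lipogenic factor Srebf1 was at 549 CPM in WT and 528 in TD and was not called.

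Neighbours of the edited locus were looked at separately. The paper's methods name the same mouse strain for the edited zygotes and the breeding partners, with WT littermates as controls. Within 1 Mb of Pparg 22 other genes were tested, of which 4 were higher and 1 was lower, with a median log2 fold change of 0.00. Plxnd1, a semaphorin receptor of endothelial cells, rose from a mean of 162 to 267 CPM (0.72 ± 0.08, adjusted p = 5.67e-05). Syn2, a synapsin gene that lies next to Pparg, was at 79.0, 71.2, 65.5 and 70.6 CPM in WT and at 45.4, 43.9, 42.3 and 40.0 in TD (-0.74). Cand2 (1.04), Mbd4 (0.64) and Ift122 (0.31) were the other 3 called.

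The defining adipocyte markers fell by modest amounts, and a wider list of adipocyte genes held rises as well. All 6 defining markers were called lower, Cidec, which fuses lipid droplets into a single large one, by 0.97 on the log2 scale and Adipoq, which encodes adiponectin, by 0.28. The call of Adipoq was lost on leaving out any of 4 libraries, namely replicates 1 and 4 of WT and 3 and 4 of TD (adjusted p = 0.0763 to 0.0868, edgeR), and with library totals (adjusted p = 0.0672). Cidec was at 791, 644, 688 and 866 CPM in WT and at 409, 401, 353 and 364 CPM in TD, with no overlap. Fabp4, the fatty acid carrier of adipocytes, was at 8333, 6912, 7523 and 8065 CPM in WT and at 5635, 5733, 4775 and 4520 in TD. Among 28 adipokines and white adipocyte markers, 13 were lower and 5 higher (median log2 fold change -0.28). Nrg4, a neuregulin secreted by thermogenic fat, fell furthest (-1.39, 10.3 to 3.92 CPM). The members that rose were Saa3, Serpina3k (0.74), Apln (0.69), Angptl8 (0.64) and Car3.

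Other genes that adipocytes are known for went against this direction or stayed level. They were chosen after their values were seen, except Car3. Car3, an abundant carbonic anhydrase of fat and muscle, was at 4051, 4003, 3895 and 4108 CPM in WT and at 5766, 5627, 4913 and 4882 in TD (0.40 ± 0.10, adjusted p = 0.0084, edgeR). Each TD library thus lay above each WT library. Thrsp, a lipogenic protein, was at 745 to 936 CPM in WT and 802 to 898 in TD, and Adrb3, the adipocyte's β-adrenergic receptor, was at 162 to 188 CPM in WT and 158 to 204 in TD, and neither was called.

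The list of beige and brown fat genes had a lower median than that of the general adipocyte markers, a difference that was not tested. Of 33 tested, 18 were lower and 2 higher (4 without WT replicate 3), with a median log2 fold change of -0.50. Kcnk3, a potassium channel of thermogenic adipocytes, was at 99, 74.7, 76 and 80.3 CPM in WT and at 20.3, 23.8, 18.1 and 14.1 in TD (-2.11 ± 0.22, adjusted p = 3.34e-05, edgeR). Elovl3, which elongates fatty acids in cold-exposed brown fat, was at 45, 20.6, 27.3 and 38.7 CPM in WT and at 8.52, 5.87, 8.62 and 7.04 in TD (-2.13). Both genes were far lower in each TD library than in any WT library. Plin5, which couples lipid droplets to mitochondria, fell by 1.94 on the log2 scale, Cox7a1 by 1.70 and Cox8b by 1.27, the last pair being the cytochrome oxidase subunits of brown fat and muscle. Dio2, the deiodinase that makes active thyroid hormone in brown fat, fell by 1.12 at a low level (5.67 to 2.60 CPM).

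Among regulators of the beige programme the differences were smaller than in the effectors just named. Ppargc1a, which encodes PGC-1α, was at 11.8, 11.9, 10.6 and 10.9 CPM in WT and at 8.57, 9.65, 9.26 and 9.32 in TD, with no overlap but an adjusted p of 0.0576 (-0.29 ± 0.11, edgeR). Prdm16, a determinant of brown and beige fate, was at 8.19 to 14.7 CPM in WT and at 9.14 to 11.3 in TD and was not called (-0.19, adjusted p = 0.374, edgeR). Tmem26, a surface marker of beige cells, was higher (1.15) at about 1 CPM, and Hoxc9 was the other member called higher (0.58). Ucp1, the uncoupling protein that defines thermogenic fat, was close to absent from both genotypes: the WT libraries held 5, 0, 0 and 2 counts and the TD libraries 1, 0, 0 and 1. Cidea held 13, 4, 12 and 16 counts in WT and 2, 3, 2 and 0 in TD. Both were below the filter and were not tested. Otop1 held 1 count in the 4 WT and 11 in the 4 TD libraries, and was not called, though it was by DESeq2 (adjusted p = 0.0212) and when TD replicate 1 or 2 was left out.

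**Figure D2:**
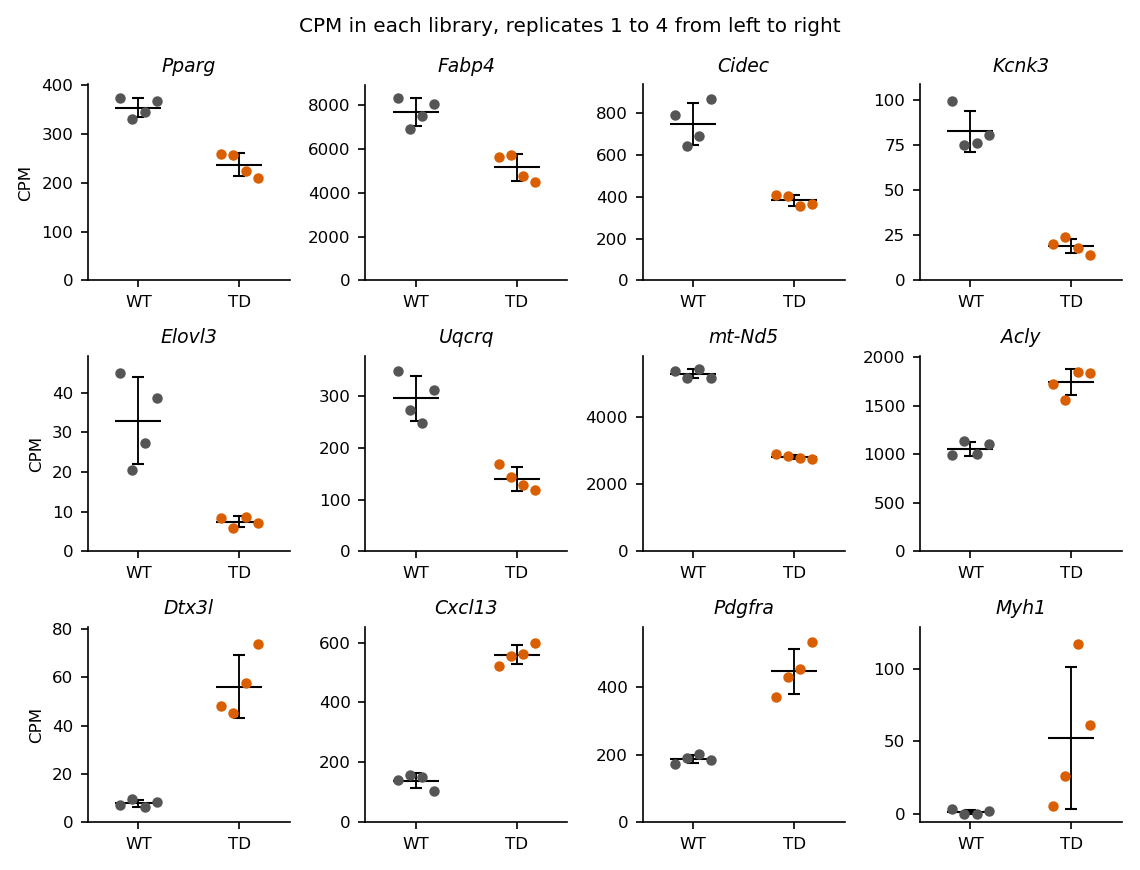
CPM of 12 genes in each library, with WT replicates 1 to 4 in grey and TD replicates 1 to 4 in orange, and the mean and SD of each genotype as bars (each axis is linear and includes 0). For each of the 12 genes the TD libraries lie wholly above or wholly below the WT libraries, and Myh1 is near the WT level in TD replicate 1 alone.

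Genes listed as PPAR targets fell broadly, with a few members of opposite sign. Of 50 tested, 36 were lower and 4 higher (2 without TD replicate 4; median log2 fold change -0.47). Pck1, which feeds glycerol to triglyceride synthesis, fell most (-2.42 ± 0.48, adjusted p = 0.00154, edgeR), from 5.40, 1.64, 2.33 and 5.70 CPM in WT to 1.25, 0.647, 0.585 and 0.293 in TD. Lpl, the lipase that frees fatty acids from circulating triglyceride, second to Fabp4 in level among the targets, fell from 7512, 7929, 6917 and 7452 CPM to 5638, 5564, 5879 and 5540 (-0.40). The targets that rose included Cyp4b1 (1.32), Cpt1a (0.61) and the Krüppel-like factor Klf11 (0.54). A separate list held 16 genes known to follow phosphorylation of PPARγ at a different residue, serine 273. Of these 5 were higher and 4 lower, with a median of 0.06, close to that of all genes. The falls numbered 1 with library totals and on leaving out TD replicate 4, WT replicate 1 or WT replicate 4, and 2 without any single one of TD replicates 1 to 3 or WT replicate 3, and the rises 3 without TD replicate 2, TD replicate 4 or WT replicate 4. Cfd, which encodes the adipokine adipsin (-0.67), Nr1d1 (-0.32), Adipoq and Aplp2 (-0.20) fell. Cd24a (1.04), Peg10 (0.88), Sparcl1 (0.52), Car3 and Ddx17 (0.23) rose.

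Transcripts of genes that handle stored triglyceride were mostly lower. Of 28 genes of lipid droplets and lipolysis 17 were lower and 1, the lysosomal lipase Lipa (0.21), was higher (median -0.42). Pnpla2, which encodes the first lipase of triglyceride breakdown and was chosen after its values were seen, was at 3427, 2926, 2973 and 3509 CPM in WT and at 2096, 2097, 2034 and 1844 in TD (-0.67). Of 29 genes of triglyceride assembly and glycerol supply 16 were lower and 3 higher (median -0.39). Gpihbp1, which holds lipoprotein lipase on capillary endothelium, was the member that rose most (1.39), along with Agpat4 (0.49) and Lpin3 (0.41).

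In fatty acid synthesis abundant enzymes moved apart. Of 22 genes 7 were lower (4 without TD replicate 4) and 2 higher, with a median log2 fold change of -0.20. Acly, which makes cytosolic acetyl-CoA from citrate, was at 988, 1135, 1005 and 1102 CPM in WT and at 1726, 1561, 1845 and 1835 in TD (0.72 ± 0.12, adjusted p = 0.000469, edgeR). Elovl6, the elongase of newly made fatty acids, rose by 0.60. Fasn, the fatty acid synthase that uses the product of Acly, was at 8298 to 12205 CPM in WT and at 7296 to 8735 in TD and was not called (-0.25). Acacb, the acetyl-CoA carboxylase isoform that restrains fatty acid oxidation, fell from 381, 287, 311 and 458 CPM to 179, 190, 190 and 192 (-0.93). Scd1, a desaturase and the most abundant gene of the libraries, fell from 58932, 56511, 60665 and 64019 to 41412, 38942, 38051 and 36702 CPM (-0.63). Its relative Scd3 fell by 2.04, but near-identical desaturase copies make the split of reads between them uncertain. Cholesterol synthesis genes stayed near the background, with 5 of 25 lower and 2 higher (median -0.09). Insig1, a brake on sterol synthesis (-0.56), Pmvk (-0.51), Hmgcs1 (-0.48), Fdft1 (-0.48) and Acat2 (-0.27) fell, and Dhcr7 (0.34) and Stard4 (0.28) rose.

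Transcripts of mitochondrial oxidation were lower at most steps, but not throughout at fatty acid entry. Of 32 enzymes of mitochondrial fatty acid oxidation 27 were lower, and the 1 that rose was Cpt1a, the liver isoform of the carnitine palmitoyltransferase that admits fatty acids. The isoforms of that step went opposite ways: Cpt1a was at 17.3, 16.6, 14.5 and 18.3 CPM in WT and at 20.3, 24.8, 23.8 and 32.7 in TD, and Cpt1b, the muscle and brown fat isoform, was at 2.65, 2.14, 2.33 and 2.30 in WT and at 0.681, 1.24, 1.49 and 1.58 in TD (-0.91). The median of the list was -0.56. Of 35 genes of the citric acid cycle and pyruvate entry 29 were lower (median -0.51). Pdp1, the phosphatase that activates pyruvate dehydrogenase, was the member called higher (0.63). In branched-chain amino acid catabolism 21 of 23 genes were lower (median -0.48) and in the peroxisomal list 25 of 37 (median -0.37), with none higher in either. Acox2, a peroxisomal oxidase of branched fatty acids, fell from 1.9 to 0.415 CPM.

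Subunits of the respiratory chain fell together and across all complexes. In complex I, which oxidizes NADH, 36 of 37 tested subunits were lower (median -0.67), and the exception, Ndufa12, was at 13.2 ± 1.62 CPM (SD, n = 4) in WT and 10.3 ± 4.24 in TD. All 4 subunits of complex II and all 9 of complex III were lower, with medians of -0.65 and -0.72. In complex IV 12 of 16 were lower (median -0.76) and in ATP synthase 15 of 18 (median -0.55). No member of these 5 lists was called higher. Among the members with the largest falls, Uqcrq of complex III was at 349, 274, 249 and 311 CPM in WT and at 170, 143, 129 and 118 in TD (-1.08), and Ndufb6 of complex I was at 69.4, 55.1, 52.3 and 59.7 in WT and at 35.3, 30.1, 27.6 and 24.2 in TD (-1.01). Chchd10, a protein of the mitochondrial intermembrane space, fell by 1.77, from a mean of 205 to 60.0 CPM.

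Transcripts of the mitochondrial genome fell to a like extent. Of 15 tested, 12 were lower and none higher (median -0.83). The respiratory subunit mt-Nd5 was at 5373, 5163, 5409 and 5158 CPM in WT and at 2891, 2830, 2761 and 2745 in TD (-0.91 ± 0.13, adjusted p = 0.00017, edgeR). The spread within each genotype was small beside the gap between them. Mitochondrially encoded transcripts made up 4.92 to 5.88% of counts in WT and 2.86 to 3.57% in TD. In the nuclear list of mitochondrial import 24 of 34 genes were lower and none higher (median -0.48), with Hspa9, the matrix chaperone that pulls in precursors, falling by 0.67.

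The list of mitochondrial biogenesis regulators had a median closer to that of all genes. Of 21 tested 6 were lower and none higher, with a median of -0.20. Ppargc1b, which encodes the coactivator PGC-1β, fell most (-0.77 ± 0.17, adjusted p = 0.00378, edgeR), from 12.2, 12.6, 15 and 22.9 CPM to 9.31, 7.65, 9.85 and 10.0. Esrra, the orphan receptor ERRα that works with both PGC-1 proteins, fell from 83.0, 85.7, 77.5 and 77.9 to 54.7, 53.3, 50.6 and 45.1 (-0.67). Twnk, Sirt3, Tfb1m and Tfam were the other 4 called, at -0.37, -0.45, -0.44 and -0.26. Nrf1, which encodes a factor that binds promoters of respiratory genes, was at 18.7 ± 0.151 CPM (SD, n = 4) in WT and 18.8 ± 0.727 in TD.

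Promoters of these genes were scanned for 5 short motifs, because the members fell together. The windows came from RefSeq (GRCm38.p6), ran from 250 bases before to 50 bases after each gene's start, and were searched on both strands. They were given for 10870 of the 15109 tested gene symbols. The binding motif of the factor NRF1 (in capitals below) was in 18 of the 67 windows given for nuclear subunits of the 5 complexes (26.9%), against 11% of all tested genes. By list it was in 7 of 15 ATP synthase windows (46.7%), 7 of 32 of complex I (21.9%), 2 of 3 of complex II, 1 of 5 of complex III and 1 of 12 of complex IV (8.33%). The ETS motif CCGGAAG was in 43.3% of windows of mitochondrial import genes, against 19.2% of tested genes. It was also in 52.6% of biogenesis regulator windows, 40% of ATP synthase windows and 36.1% of cytosolic ribosomal protein windows, and in 9.4% of those of complex I. The motif is thus not particular to import genes or to lists that fell. The ERR element TCAAGGTCA was in 34 windows of tested genes and the direct-repeat PPAR element in 5, too few to compare. A match is a description of the sequence and does not show binding. The matches upstream of the start are shown for the 4 called subunits with the largest falls among those with a match. The matches have 20 bases on each side and are read along the gene's own strand, with the motif in capitals. They lie at chr6:24527687-24527736, chr5:115349091-115349140, chr4:123718255-123718304 and chr13:74350309-74350358, each on the minus strand.
Ndufa5: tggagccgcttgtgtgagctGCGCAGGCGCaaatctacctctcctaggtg
Cox6a1: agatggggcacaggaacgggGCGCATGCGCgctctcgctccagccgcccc
Ndufs5: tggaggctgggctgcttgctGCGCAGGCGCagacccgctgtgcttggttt
Sdha: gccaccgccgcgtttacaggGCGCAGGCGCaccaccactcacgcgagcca
These 4 genes, which the motif chose, fell by 0.98, 0.94, 0.71 and 0.71 on the log2 scale, in the order shown. Ndufa5 was at 54.3, 35.5, 38.2 and 41.2 CPM in WT and at 23.6, 23.1, 19.5 and 19.6 in TD.

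**Figure D3:**
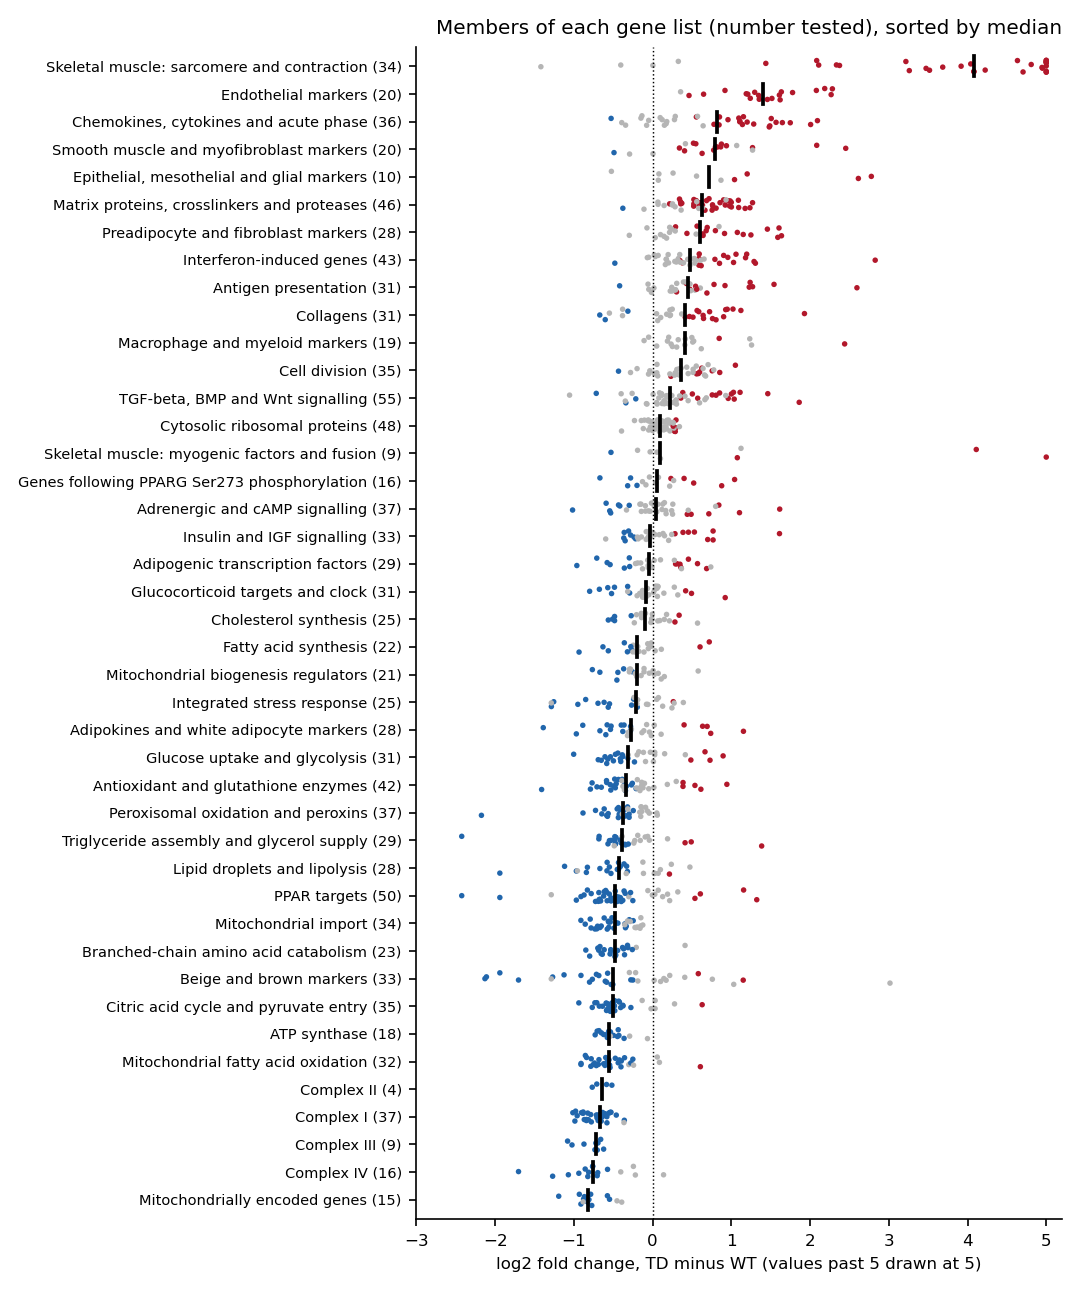
Each row is a gene list with the number of members tested, and each point is 1 member at its log2 fold change, TD minus WT (red called higher, blue called lower, grey not called; values past 5 are drawn at 5). Black bars mark each list's median and the dotted line the median of all tested genes. The 6 lists with the lowest medians are complexes I to IV, the mitochondrially encoded genes and mitochondrial fatty acid oxidation, and the highest is the sarcomere list.

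Several other metabolic and stress lists were lower in part. Of 31 genes of glucose uptake and glycolysis 16 were lower and 4 higher (median -0.31). Members moved both ways: Aldoc, an aldolase, fell by 1.00, and the enolases Eno2 and Eno3 rose by 0.90 and 0.73, as did the lactate transporter Slc16a3 (0.67) and the hexokinase Hk1 (0.49). In the antioxidant and glutathione list 22 of 42 were lower and 5 higher (median -0.34), with Gsta4, a detoxifier of lipid aldehydes, falling most (-1.41). Gstt1 (0.94), Gpx8 (0.61), Gpx7 (0.54), Sod3 (0.39) and Prdx4 (0.39) rose. Of 25 genes of the integrated stress response, which is activated by misfolded protein and mitochondrial faults, 12 were lower and 1, Aldh18a1 of proline synthesis (0.26), was higher (median -0.21). Gdf15, a secreted product of that response, was at 16, 8.94, 15.7 and 18.3 CPM in WT and at 5.05, 6.90, 6.71 and 5.45 in TD (-1.29 ± 0.23, adjusted p = 0.000805, edgeR).

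Members of the hormone and signalling lists moved both ways, so that the list medians were near 0. Among 37 adrenergic and cAMP genes 6 were higher and 7 lower (median 0.04), and the largest fall was that of Adra1a, an α-adrenergic receptor (-1.02). Among 33 insulin and IGF genes 8 were higher and 7 lower (median -0.03), with Igfbp5, an IGF-binding protein of stromal cells, rising from 28.7, 43.6, 51.7 and 26.7 CPM to 94.9, 118, 105 and 144 (1.61). The 7 falls of that list became 2 to 4 on leaving out any TD library or WT replicate 3 or 4. For 31 glucocorticoid targets and clock genes the counts were 3 higher, namely Hlf (0.92), Errfi1 (0.49) and Dusp1 (0.42), and 7 lower (median -0.08). Of 48 cytosolic ribosomal protein genes 5 were higher and none lower (median 0.10): Rplp0, Rpl6, Rps7, Rps4x and Rpl15, by 0.26 to 0.30. This count was 2 or 3 on leaving out TD replicate 1, 2 or 3 or WT replicate 2, 3 or 4.

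Matrix genes and markers of preadipocytes and fibroblasts rose. Of 46 matrix proteins, crosslinkers and proteases 33 were higher and 1, Thbs1 (-0.38), was lower, with a median of 0.63. Fn1, which encodes fibronectin, was at 2698, 3678, 4045 and 3394 CPM in WT and at 5147, 5639, 7003 and 8398 in TD (0.92 ± 0.18, adjusted p = 0.00115, edgeR). Lum, a proteoglycan that spaces collagen fibrils, rose by 1.27. Of 31 collagens 16 were higher and 3 lower (median 0.41). Col3a1 was at 5911, 8491, 7589 and 6604 CPM in WT and at 10970, 12509, 15044 and 16645 in TD (0.95). The collagens that fell were Col11a2 (-0.67), Col7a1 (-0.60) and Col4a5 (-0.31), of which 1 was called without TD replicate 2 or WT replicate 2.

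Of 28 preadipocyte and fibroblast markers 16 were higher and none lower (median 0.60). Pdgfra, the receptor that marks fat progenitors, was at 174, 190, 202 and 186 CPM in WT and at 371, 430, 452 and 534 in TD (1.25 ± 0.16, adjusted p = 0.00011, edgeR). Cd34 went from 14.3, 22.1, 20.1 and 13.8 CPM to 49.0, 38.6, 66.6 and 60.3 (1.61), and Pi16, a marker of early interstitial progenitors, rose by 1.59. Each of these 3 genes was higher in all TD libraries than in any WT library. Dlk1, another preadipocyte marker, had 0 counts in all 8 libraries. The summed CPM of the 6 defining markers of these cells was 544 to 610 in WT and 887 to 1176 in TD. Smooth muscle and myofibroblast markers were higher for 14 of 20 (median 0.79). The pericyte genes diverged: Rgs5 went from 3.01, 2.78, 4.06 and 1.64 CPM to 16.1, 15.5, 14.1 and 17.7 (2.45), and Cspg4, a surface proteoglycan, fell from 26.3, 26.2, 25.8 and 30.0 to 19.3, 18, 19.7 and 19.99 (-0.49). Among TGF-β, BMP and Wnt genes 15 of 55 were higher and 3 lower (median 0.22), including rises of Fstl1 (1.00) and Sfrp4 (1.86) and falls of Acvr1c, the activin receptor of mature adipocytes (-0.72), Id1 (-0.34) and Smad2 (-0.21).

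Endothelial markers rose almost without exception, at low levels. Of 20 tested 19 were higher, with a median of 1.41. Pecam1, the junctional antigen CD31, was at 16.3, 11.5, 21.4 and 8.27 CPM in WT and at 40.6, 40.6, 35.4 and 48.1 in TD (1.52 ± 0.22, adjusted p = 0.000213, edgeR). Cdh5, which encodes VE-cadherin, rose by 1.61. Vwf was the exception, at 1.59 to 3.37 CPM in WT and 2.98 to 3.58 in TD. The factors Sox17 (2.28) and Sox18 (2.19) and the lymphatic genes Flt4 (2.27) and Prox1 (2.08) moved with them, the last 3 named after their values were seen. The summed CPM of 5 defining endothelial markers was 20.4 to 47.9 in WT and 83.8 to 109 in TD, and all 4 TD libraries were above WT.

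**Figure D4:**
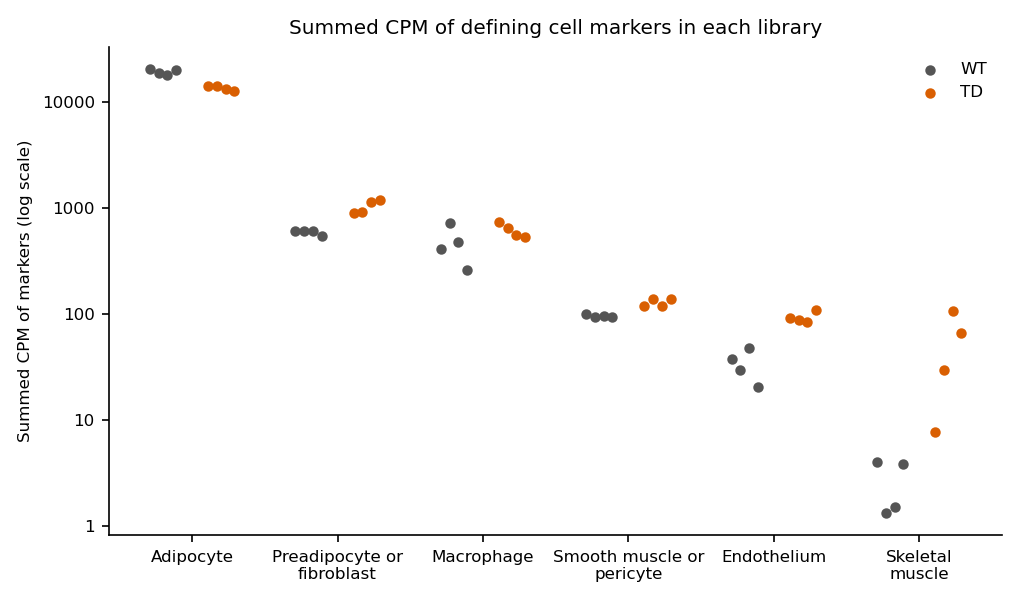
Summed CPM of the defining markers of 6 cell types in each library, on a log scale, with WT replicates 1 to 4 in grey and TD replicates 1 to 4 in orange. Adipocyte markers are lower in each TD library than in any WT library, those of fibroblasts, smooth muscle, endothelium and skeletal muscle are higher, and those of macrophages overlap.

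Macrophage markers overlapped between genotypes as a list. Of 19 tested 2 were higher and none lower, with a median of 0.41. The count was 1 without any single one of TD replicates 1 to 3 or WT replicates 1, 3 and 4, 8 without WT replicate 2, 5 by limma-voom and 11 without the filter on low counts. The list score was -1.08 to 0.59 in WT and 0.18 to 0.58 in TD, and the summed CPM of 6 defining markers was 258 to 722 in WT and 529 to 743 in TD. The median was 0.19 without WT replicate 4, the library with the lowest macrophage sum, and 0.82 without WT replicate 2, the one with the highest. Cd163, a scavenger receptor of resident macrophages, was nonetheless at 2.75, 7.0, 6.49 and 2.85 CPM in WT and at 19.4, 25.9, 30.0 and 28.9 in TD (2.44 ± 0.31, adjusted p = 9.24e-05, edgeR). It was above WT in all 4 TD libraries, whereas C1qa, the other member called, overlapped between genotypes (0.85). Among markers of epithelial, mesothelial and glial cells 4 of 10 were higher (1 without TD replicate 4, WT replicate 1 or WT replicate 3, 2 without TD replicate 2 or WT replicate 2, and 2 of 5 with at least 10 counts in every library), among them Krt8 (2.61), Krt18 (2.78) and Ncam1 (1.20), and all 4 stayed under 10 CPM on average. For cell division 8 of 35 genes were higher and 1, Rrm2 (-0.43), was lower (median 0.36), a count that fell to 3 when TD replicate 4 was left out and to 4 when WT replicate 4 was, and reached 15 when WT replicate 2 was.

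Chemokine and acute-phase genes rose. Of 36 tested 20 were higher and 1, the haptoglobin gene Hp (-0.53), was lower (median 0.81). Cxcl13, the chemokine that draws B cells, and Cxcl12, which retains stem and immune cells in stroma, were named after their values were seen. Cxcl13 was at 143, 159, 151 and 104 CPM in WT and at 520, 556, 562 and 598 in TD (2.01 ± 0.19, adjusted p = 2.57e-05, edgeR). Cxcl12 was at 309, 411, 389 and 288 in WT and at 798, 845, 832 and 928 in TD (1.28). The TD libraries stood close to each other and far above WT for both. Complement C3, one of the most abundant genes that rose, went from 5306, 5638, 5580 and 5779 CPM to 9368, 9365, 10409 and 10904 (0.84), and Saa3, an acute-phase apolipoprotein made by fat, rose by 1.15. The marker sums given above for fibroblasts and endothelium moved with these genes, and their part in the result was not tested.

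Interferon-induced genes were higher in part of the TD libraries only. Of 43 tested 17 were higher and 1, Ifi27 (-0.48), was lower, with a median of 0.47. The list score, its members' mean log2 CPM less that of all 8 libraries, was -0.19 and -0.20 in TD replicates 1 and 2, within the WT range of -0.52 to 0.13, and 0.58 and 0.81 in TD replicates 3 and 4. Oas2, an antiviral oligoadenylate synthetase chosen after its values were seen, shows the split, with 25.1, 28.5, 60.7 and 66.4 CPM in TD against 15.7, 17.8, 20.8 and 19.6 in WT. The members called higher numbered 7 without TD replicate 3, 7 without TD replicate 4 and 11 without WT replicate 3. Without both 3 were called and the median was 0.02. The antigen presentation score was also highest in TD replicates 3 and 4 (0.45 and 0.50). Unlike the interferon score, it was above the WT range of -0.40 to -0.11 in TD replicates 1 and 2 too (0.079 and 0.018). Of 31 tested 14 were higher and 1, Psme2 (-0.42), was lower (median 0.46). The members called higher numbered 6 without TD replicates 3 and 4 together (median 0.17), 8 and 7 without either alone and 9 without WT replicate 2 or WT replicate 3.

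Each TD library was above each WT library for 5 of the 43 interferon genes and 11 of the 31 antigen presentation genes, against 15.8% of all genes tested. Dtx3l, Gbp4 and B2m were among them. Dtx3l, a ubiquitin ligase of the interferon and DNA damage responses, was at 7.0, 9.68, 6.34 and 8.6 CPM in WT and at 48.3, 45.2, 57.5 and 73.8 in TD (2.83 ± 0.17, adjusted p = 1.77e-07, edgeR). Even TD replicates 1 and 2, with interferon scores in the WT range, held more of it than any WT library. Parp9, its partner in the same protein complex and its neighbour on the chromosome, was at 52.4 to 76.2 CPM in WT and 68.9 to 100 in TD (0.35), with overlap. Gbp4, an interferon-induced GTPase, was at 0.571, 0.695, 0.545 and 0.384 CPM in WT and at 3.07, 2.53, 3.99 and 3.87 in TD (2.60). B2m, the light chain of class I antigen-presenting molecules, rose from 929 to 1105 CPM in WT to 1235 to 1542 in TD (0.46).

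**Figure D5:**
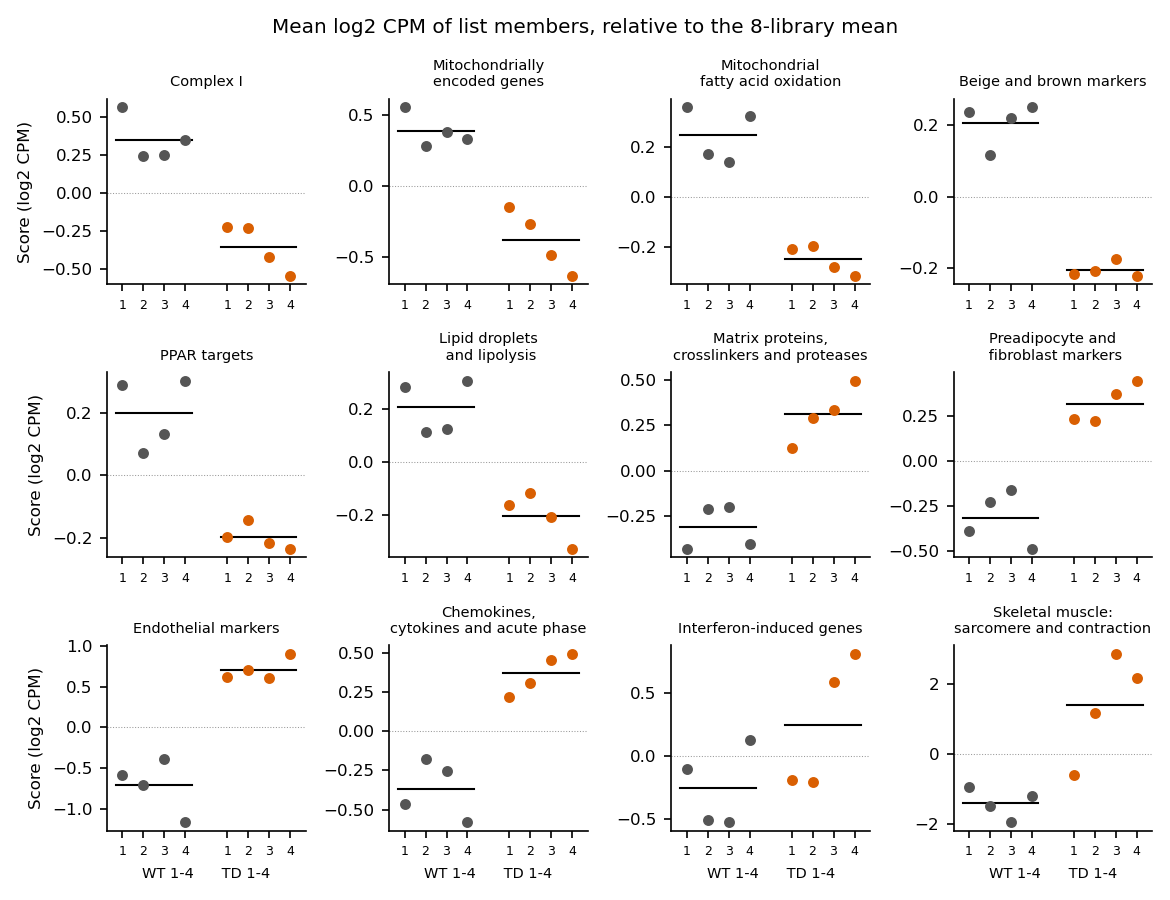
Score of 12 gene lists in each library, the mean log2 CPM of its members less that of all 8 libraries, with WT replicates 1 to 4 in grey, TD replicates 1 to 4 in orange and the genotype mean as a line. The WT and TD libraries do not overlap in 11 of the 12 lists, the interferon score is raised in TD replicates 3 and 4 only, and the sarcomere score of TD replicate 1 is -0.60, next to the highest WT value of -0.95.

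Skeletal muscle genes showed the largest rises, from levels near 0 in WT and with a wide spread among TD libraries. Of 34 sarcomere and contraction genes tested 30 were higher and none lower (median 4.08), but only 22 of the 34 had each TD library above each WT library. Members could pass the filter through the TD and TA libraries without counts in WT, so the count does not speak for the 51 genes listed. Myh1, a fast myosin heavy chain, was at 2.96, 0.0497, 0 and 1.92 CPM in WT and at 5.22, 25.9, 117 and 61.3 in TD (5.44 ± 0.94, adjusted p = 0.000619, edgeR). Myh3, the embryonic myosin, was at 0.104, 0.0993, 0 and 0.274 in WT and at 1.25, 4.80, 19.5 and 13.7 in TD. TD replicate 3 was highest and TD replicate 1 lowest for both, and reads of the myosin paralogs may be split between copies. By limma-voom Myh1 was not called (adjusted p = 0.0724), nor were Mybpc1 (0.0896) and Atp2a1 (0.0735). Acta1, the actin of skeletal muscle, was at 2.33, 0.497, 1.24 and 2.19 CPM in WT and at 3.07, 12.5, 50.2 and 28.4 in TD (3.92). Atp2a1, the calcium pump of fast fibres, moved likewise (4.71), but it overlaps another gene, Rabep2, and the strand setting of the counting was not given in the sources used here. Without TD replicates 3 and 4 the list had 17 genes higher and a median of 2.48, and without TD replicate 3 alone a median of 3.51. Without TD replicate 1 it had 30 genes higher and a median of 4.45. With genes held to at least 10 counts in every library 9 of the 34 remained and 6 of them were called higher (median 2.12), and in the 8 libraries without TA 21 remained and 17 were. By limma-voom 22 of 34 were called.

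The myogenic factors were detected in the same TD libraries. Of 9 tested 3 were higher and 1, the laminin receptor Itga7 (-0.53), was lower (median 0.10), and 12 of the 21 listed were below the filter. With at least 10 counts in every library, and likewise in the 8 libraries without TA, 6 remained and 1 of them was higher. With Myog set at its lower bound the median was the same. Leaving out any single TD library left 3 of the list higher, with medians of 0.077 to 0.14. Myog, the factor that starts terminal muscle differentiation, had no count in any WT library and 7, 22, 61 and 46 counts in TD replicates 1 to 4, which made it at least 49.0-fold higher when WT is set at 3 counts over its 4 libraries. Myod1, which commits cells to muscle, had 0 counts in WT and 0, 0, 5 and 12 in TD, and Mymk, which fuses myoblasts, had 1 count in WT and 2, 7, 44 and 17 in TD. Chrna1, the muscle acetylcholine receptor, rose (4.11). Pax7, the marker of muscle stem cells, had 0 counts in all 8 libraries. The ubiquitous factors Mef2a (-0.03) and Mef2d (0.10) and the homeobox gene Six4 (0.06) were not called, and Mef2c rose by 1.08. The summed CPM of 7 defining muscle markers was 1.34 to 4.05 in WT and 7.72, 29.7, 107 and 66.4 in TD replicates 1 to 4.

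The promoter windows of the sarcomere genes were searched in the same way. The palindromic E-box CAGCTG, which muscle-specific basic helix-loop-helix factors such as those encoded by Myod1 and Myog bind, was in 14 of 26 windows (53.8%), against 18.2% of tested genes. Lists that moved otherwise also held it often, with 46.2% of macrophage, 40.5% of PPAR target, 38.9% of adipokine, 38.5% of adrenergic and 36.8% of lipid droplet windows, so it is not particular to sarcomere genes. It was in 25% of windows of all genes called higher and 14.4% of those called lower. The motif chose the genes shown next, and Myog, with a larger fitted rise, is not among them. The matches upstream of the start are shown as above for the 4 called genes with the largest fitted rises among those with a match. They lie at chr1:135836091-135836136 on the plus strand, chr10:88605214-88605259 on the minus strand, chr1:134193349-134193394 on the plus strand and chr7:126463103-126463148 on the minus strand.
Tnnt2: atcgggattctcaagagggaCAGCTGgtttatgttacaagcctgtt
Mybpc1: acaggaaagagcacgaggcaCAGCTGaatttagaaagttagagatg
Mybph: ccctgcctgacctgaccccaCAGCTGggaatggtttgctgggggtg
Atp2a1: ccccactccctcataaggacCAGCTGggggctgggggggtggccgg
Mybpc1, a myosin-binding protein of slow fibres, was at 0.674, 0.199, 0 and 0.219 CPM in WT and at 0.795, 6.63, 35.1 and 17.2 in TD. Tnnt2 was at 0.104, 0, 0 and 0 in WT and at 0.284, 1.62, 5.75 and 4.75 in TD.

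The lower mitochondrial genes were below WT in all 4 TD libraries, and lowest in TD replicates 3 and 4. The score of complex I was 0.24 to 0.57 in the WT libraries and -0.22, -0.23, -0.42 and -0.54 in TD replicates 1 to 4, and that of mitochondrially encoded genes was 0.28 to 0.55 in WT and -0.15, -0.27, -0.48 and -0.63 in TD. TD replicate 1, with sarcomere genes near the WT level, was below each WT library for both, and the 2 libraries with the highest sarcomere and interferon levels were lower still. The part of those in the result was not tested. Without TD replicates 3 and 4, 29 of 37 complex I subunits and all 9 of complex III were still called lower, with medians of -0.57 and -0.65. The endothelial list had 16 of 20 higher (median 1.47) and the chemokine list 16 of 36 (median 0.73) in the same fit. The 6 adipocyte markers, summed, were lower in each TD library than in any WT library, and they moved with these results. When libraries were scaled to those 6 markers, the median log2 fold change of all genes became 0.51, and the medians of complexes I, III and IV and of mitochondrially encoded genes were -0.18, -0.22, -0.26 and -0.34. Fatty acid oxidation stood at -0.06, beige and brown markers at -0.01 and PPAR targets at 0.03 on that scale, all below the median of all genes. Fabp4 and Lpl, which help to set the scale, are also listed as PPAR targets, so the scale is not independent of that list. Kcnk3, Elovl3, Plin5 and Cox7a1 remained lower in TD under all 19 alternative settings.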

How the data were processed

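RNA-seq was analysed from the gene counts deposited by the authors. Per the labels and the submitters' processing notes, reads were demultiplexed with bcl2fastq 2.17.1.14, trimmed with cutadapt 1.9.1, aligned to GRCm38 with HISAT2 2.0.1 and counted with HTSeq 0.6.1, which drops reads that map to several places; the strand setting is not given in the sources used here. Counts of 55573 genes were tested with edgeR 4.0.16 (R 4.3.3; TMM scaling, quasi-likelihood F-test, all 12 libraries in 1 fit, 1 comparison). The filter filterByExpr (min.count 10, min.total.count 15) kept 15117 genes over the 12 libraries, and 14816 in the 8 libraries without TA. Calls were made at a Benjamini-Hochberg adjusted p under 0.05, and the SE is the log2 fold change over the square root of F. Gene symbols were those deposited with the counts. Gene types and positions came from the GENCODE M21 annotation, which held 99.7% of the identifiers. Depth was 16553324 to 20324286 counts per library, and no pair of replicates was a duplicate. The calculation was tested on simulated data.

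Members and lists were chosen with earlier results of these data known, and some list genes belong to more than 1 list. Genes were named by rule: the study's beige markers with Pparg and Adipoq, the 10 largest rises and falls among called genes without overlap and with at least 5 CPM (predicted genes and pseudogenes left out), the 8 most abundant of each, the extreme and most abundant called members of each list, cell markers, all members of lists of 12 or fewer, and neighbours of Pparg within 1 Mb. Some genes that met the rule or complete a count are not reported here. Other genes named complete a count or were chosen after their values were seen, among them Cxcl12, Cxcl13, Oas2, Parp9, Pnpla2, Fasn, Srebf1, Thrsp, Adrb3, Elovl6, Ppara, Nrf1, Sox18, Flt4 and Prox1. Alternatives were other scalings and filters, DESeq2 1.42.0, limma-voom 3.58.1, the 8 libraries alone, a replicate block and leaving out libraries.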

Additional observations from a re-analysis of the deposited data

Results flagged for a closer look

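Of 170 groups of 4 libraries, 2 (1.18%) had a library whose gap to the nearest other exceeded Dixon's limit as a share of the group's range, and chance gives about 1 in 20. The adipogenic transcription factor score of TD replicate 3 was 0.0484, against -0.0190 to -0.0161 in the other TD libraries. Otop1 was at 0.0497 CPM in WT replicate 2, a single count, and at 0 in the other WT libraries.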

How the results depend on the processing

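The 4418 calls (2276 higher, 2142 lower) became 4451 with DESeq2's size factors, 4398 with library totals, 4398 with upper-quartile factors, 4526 without the filter, 4701 by DESeq2, 4438 by limma-voom and 4896 in the 8 libraries alone. No gene called in both the reported fit and one of these had opposite signs. Leaving out 1 library gave 3121 to 4413 calls (1632 to 2266 higher, 1489 to 2147 lower), and the lowest count was without TD replicate 4. An adjusted p under 0.01 gave 2485 (1293 higher, 1192 lower), and a change over 2-fold 795 (663 and 132). The replicate block gave 4246 calls (2211 and 2035). The numbers do not pair the libraries: same-numbered WT and TD libraries correlated at -0.060 to 0.035 in their deviations, and 0 of 4 WT libraries correlated best with its own number.

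With library totals, the median log2 fold change was 0.029 for adipogenic factors, -0.44 for beige and brown markers, 0.12 for genes following Ser273 phosphorylation, -0.13 for biogenesis regulators, -0.24 for glycolysis, 0.032 for insulin and IGF signalling, 0.11 for adrenergic signalling, 0.29 for TGF-β, BMP and Wnt signalling and -0.012 for glucocorticoid targets and clock, while the median of all genes was 0.08. With upper-quartile factors that of insulin and IGF signalling was -0.014. With at least 10 counts in every library the sarcomere median was 2.12. Leaving out 1 library, medians ran from -0.56 to -0.45 for beige and brown markers, -0.32 to -0.26 for glycolysis, -0.26 to -0.14 for biogenesis regulators, -0.057 to -0.0080 for adipogenic factors, 0.0077 to 0.10 for genes following Ser273 phosphorylation and -0.041 to 0.0056 for insulin and IGF signalling.

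Alternatives that follow were chosen after seeing the data. Scaled to 6 adipocyte markers, which moves the median of all genes to 0.51, 10257 genes were called (10020 higher, 237 lower). List medians were then 0.45 for adipogenic factors, 0.21 for adipokines, -0.0091 for beige and brown markers, 0.029 for PPAR targets, 0.55 for genes following Ser273 phosphorylation, -0.058 for fatty acid oxidation, 0.13 for peroxisomes, -0.011 for the citric acid cycle, 0.015 for branched-chain amino acids, -0.18, -0.15, -0.22 and -0.26 for complexes I to IV, -0.048 for ATP synthase, -0.34 for mitochondrially encoded genes, 0.29 for biogenesis regulators, 0.022 for import, 0.29 for fatty acid synthesis, 0.10 for triglyceride assembly, 0.078 for lipid droplets and 0.41 for cholesterol synthesis. Adipoq (0.22), Lpl (0.10), Ppargc1a (0.20), Prdm16 (0.31) and Scd2 (0.17) changed sign. That scaling raises each gene by a like amount, and Adipoq and Lpl are among the genes that define it, so these signs follow from its construction. Fabp4 (adjusted p = 0.340, edgeR), Scd1 (0.219), Hp (0.787), Dio2 (0.0749) and Pparg lost their calls. Without TD replicates 3 and 4 together 1516 genes were called (837 higher, 679 lower), with fewer libraries by construction. Medians were then -0.00093 for adipogenic factors, -0.19 for adipokines, -0.40 for beige and brown markers, -0.45 for fatty acid oxidation, -0.43 for the citric acid cycle, -0.64 for mitochondrially encoded genes, -0.12 for biogenesis regulators, -0.23 for glycolysis, -0.25 for antioxidant enzymes, 0.44 for preadipocyte markers, 2.48 for the sarcomere, 0.018 for interferon-induced genes and 0.17 for antigen presentation. Otop1 was at -1.53. The cause of the other shifts was not tested. Of 43 named genes recomputed under 19 settings, 26 kept direction and call in all. Depth limits genes with few counts, such as Ucp1, Cidea and Myod1.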
